A study of Homo sapiens with 9 samples.

Results

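The integrated stress response regulators described here are 10 genes of the 56541 in the deposited table: the transcription factors ATF4, ATF3, ATF5 and DDIT3 (which encodes CHOP), and the effectors DDIT4, TRIB3, CHAC1, SESN2, STC2 and PPP1R15A. They were taken by gene symbol, and all 10 had a value in each of the 9 libraries and passed the filter on low counts in both comparisons. RNA came from MOLM-13, a human acute myeloid leukaemia cell line, in 3 groups of 3 libraries. The shCONTROL group was RNA-seq of total RNA from cells carrying a control hairpin, the shBCLAF1 group was the same for cells with a BCLAF1 hairpin (BCLAF1 is an RNA-associated protein of the nucleus), and the RIP group was RNA recovered with BCLAF1 from shCONTROL cells. All groups shared 4 days of doxycycline at 200 ng/µL, as the labels give the dose, and no group without it was analysed here. Doxycycline inhibits mitochondrial translation, which is itself a known trigger of the integrated stress response. The labels name a single hairpin per group and do not say whether replicates were separate cultures, so p-values measure the spread between these libraries, which may be technical.

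In the integrated stress response, kinases that sense lack of amino acids, haem or folded protein, or viral RNA, phosphorylate the translation factor eIF2. This lowers protein synthesis in general, while ATF4 mRNA, which has upstream open reading frames, is translated more. ATF4 then activates genes of amino acid supply and, together with CHOP and ATF3, genes that restrain growth or end the response. The data below are RNA levels, so they do not show how much ATF4 protein the cells made.

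The members were chosen by their role in this pathway with their fold changes after BCLAF1 knock-down known. Their values after knock-down are therefore given as a description, with no test, while the RIP comparison, whose values are not known to have entered the choice, is given with its test. Both comparisons share the shCONTROL libraries. A choice of genes low after knock-down can favour genes whose shCONTROL values happen to be high. That would lower their RIP values too, so the RIP tests are not independent of the choice, above all on the lower side. Levels are CPM, estimated counts scaled to library size with TMM factors over all 9 libraries. They are compared between libraries for 1 gene, not between genes, since they are not divided by transcript length.

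Totals ran from 25819144 to 36635268 estimated counts per library. BCLAF1 itself, the check of the hairpin labels, fell from 322 ± 8.28 CPM (SD, n = 3) to 114 ± 12.9 with its hairpin (SD, n = 3). Of 12 myeloid leukaemia markers 11 were above 1 CPM in every group and CD14 was at 0, and of 12 markers of other cell types 3 were above 1 CPM. The myeloid markers summed to 3071 to 3188 CPM in the control libraries, 5739 to 6007 after knock-down and 2298 to 2526 in the precipitate. The rise after knock-down was mostly that of LYZ (means of 730, 2650 and 46.4 CPM in the same order) and AZU1 (685, 1416 and 267 CPM). Most of the sum in the precipitate came from other markers. Of the 11 markers tested after knock-down 5 were higher at an adjusted p under 0.05, beside 15.5% of all genes, and 2 of them by at least 1 (log2). FLT3 was lower and the other 5 did not pass. The median log2 fold change (log2FC) of the list was 0.21 after knock-down and 0.10 in the RIP. Markers of other cell types summed to 197 to 208, 225 to 270 and 427 to 673 CPM in the same order, and 8 to 9 of these 12 were at 0 in each group. The part of these shifts in the results below was not tested.

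The 10 genes lie on chromosomes 1, 5, 10, 12, 15, 19, 20 and 22 (RefSeq annotation of GRCh38.p14), so no shared position joins them beyond ATF5 and PPP1R15A on chromosome 19 and ATF3 and SESN2 on chromosome 1. RefSeq promoter sequences, from 250 bases before to 50 after a transcript start, were found for all 10. They were searched on both strands for the core of the C/EBP-ATF response element bound by ATF4 with C/EBP proteins, TGATGNAA, and for the core of the cAMP response element, TGACGT, with its full form TGACGTCA. TGATGNAA was found in promoters of 2 of the 10 genes, CHAC1 and ATF3, against 4.46% of all 27305 genes with a promoter in the table. TGACGT was found in 1 of the 10, PPP1R15A, against 9.64% of all genes, and the full form TGACGTCA, which contains it on both strands, in the same gene against 2.25%. The 250 bases before the start are shown for the 2 genes with the lowest values after knock-down, STC2 and CHAC1, for the one that moved least, PPP1R15A, and for the first of the 2 promoters of ATF3. Bases are 5′ to 3′ on the strand of the gene, and capitals mark matches to the motifs.
STC2 promoter, chr5:173328415-173328664, minus strand: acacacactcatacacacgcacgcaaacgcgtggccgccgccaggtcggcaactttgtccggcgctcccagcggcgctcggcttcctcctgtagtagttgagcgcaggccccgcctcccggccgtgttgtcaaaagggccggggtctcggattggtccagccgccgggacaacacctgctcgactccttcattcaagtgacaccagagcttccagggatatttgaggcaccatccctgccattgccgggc
CHAC1 promoter, chr15:40953221-40953470, plus strand: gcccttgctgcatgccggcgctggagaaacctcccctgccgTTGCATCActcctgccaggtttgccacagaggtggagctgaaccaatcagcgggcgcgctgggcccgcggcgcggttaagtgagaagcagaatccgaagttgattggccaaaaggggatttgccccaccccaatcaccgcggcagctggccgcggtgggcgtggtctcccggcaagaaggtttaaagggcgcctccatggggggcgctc
PPP1R15A promoter, chr19:48872171-48872420, plus strand: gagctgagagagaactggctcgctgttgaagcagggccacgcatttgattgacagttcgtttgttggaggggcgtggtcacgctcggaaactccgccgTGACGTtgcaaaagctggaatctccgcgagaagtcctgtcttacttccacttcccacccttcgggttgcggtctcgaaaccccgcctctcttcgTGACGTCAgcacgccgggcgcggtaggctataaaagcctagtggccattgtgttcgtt
ATF3 promoter, chr1:212565157-212565406, plus strand: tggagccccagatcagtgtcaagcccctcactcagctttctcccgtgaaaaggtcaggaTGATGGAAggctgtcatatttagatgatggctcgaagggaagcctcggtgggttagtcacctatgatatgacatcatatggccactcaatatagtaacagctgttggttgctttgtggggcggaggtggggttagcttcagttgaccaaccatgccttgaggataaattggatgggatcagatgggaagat
The match in CHAC1 is on the opposite strand, from 209 to 202 bases before the start. In PPP1R15A one TGACGT begins 152 bases and the full element 58 bases before the start. The STC2 promoter held none of these letters, nor did the second promoter of ATF3 or any listed promoter of the other 6 genes. A match is a description of the letters and not evidence of binding.

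The knock-down comparison asks how RNA levels differ when BCLAF1 is depleted. All 10 regulators were lower in shBCLAF1 than in shCONTROL, from 4.17% of the control level for STC2 to 77.8% for PPP1R15A. Each was at an adjusted p under 0.05 in a fit that called 16.9% of the 16961 genes tested lower, and nothing is read from this count, because the members were chosen with these values known. In 10 of 10 the 3 shBCLAF1 libraries lay below the 3 shCONTROL libraries. The share of all genes for which this held was not computed, and nothing is read from this count either. The median log2FC of the 10 was -1.77, beside 0.02 over all genes tested, and 7 of the 10 reached -1 or lower, as did 2.29% of the genes tested. None was higher, where 1.81% of the genes tested were higher by at least 1. In bulk RNA, fewer cells of a type and less RNA per cell cannot be told apart.

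**Figure D1:**
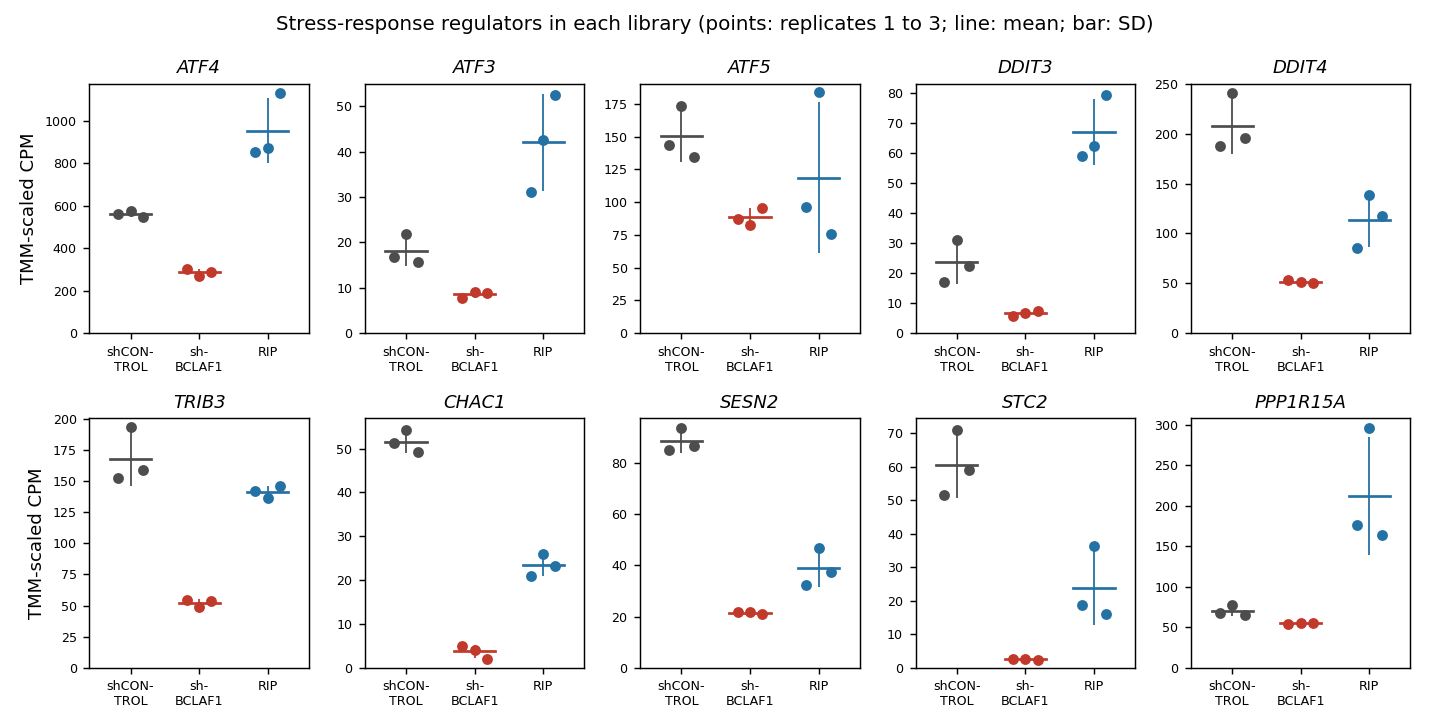
TMM-scaled CPM (vertical axes from 0) of the 10 regulators in each library of shCONTROL, shBCLAF1 and RIP; points are libraries in the order of replicates 1 to 3, lines are means and bars are SD. The shBCLAF1 libraries lie below the shCONTROL libraries in every panel, a description only, since the members were chosen with these values known. The RIP libraries lie above the shCONTROL libraries for ATF4, ATF3, DDIT3 and PPP1R15A and below for DDIT4, TRIB3, CHAC1, SESN2 and STC2.

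Among the transcription factors, ATF4 (ENSG00000128272), the main effector of the pathway, measured 560, 574 and 546 CPM in shCONTROL replicates 1, 2 and 3 and 300, 270 and 289 CPM in shBCLAF1. The 3 knock-down libraries were all near 51.2% of the control level, and the log2FC was -0.97 (SE 0.05). ATF3 (ENSG00000162772), a repressor and activator induced by many stresses, measured 16.7, 21.9 and 15.6 CPM and then 7.69, 9.15 and 8.93. Its log2FC of -1.07 (SE 0.15) was of the size of that of ATF4. The processed pseudogene of ATF4 named ATF4P3 held 188 to 215 counts in shCONTROL beside 19316 to 19768 of ATF4, and ATF4P4 held fewer than ATF4P3 in each of these libraries.

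DDIT3 (ENSG00000175197), which encodes the pro-apoptotic factor CHOP, measured 17.0, 31.2 and 22.5 CPM in shCONTROL and 5.53, 6.71 and 7.42 in shBCLAF1. Its controls varied most among the 10 genes, with a coefficient of variation of 30.2%, and still did not overlap the knock-down libraries. The log2FC was -1.85 (SE 0.24), with values of -2.02 to -1.58 when 1 library was omitted. The annotation places MARS1, a methionyl-tRNA synthetase gene, over part of DDIT3. The libraries were stranded per the labels, but whether counting used the strand is not given in the sources used here, so DDIT3 counts are uncertain. MARS1 had a log2FC of -0.79 after knock-down, smaller than that of DDIT3.

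ATF5 (ENSG00000169136), whose mRNA is under the same translational control as ATF4, measured 143, 173 and 135 CPM in shCONTROL and 87.4, 82.2 and 95.7 in shBCLAF1. At a log2FC of -0.77 (SE 0.11) it was the factor that moved least. It lies over parts of IL4I1 and NUP62 in the annotation, so its counts are uncertain where strand was not used.

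Among the effectors, STC2 and CHAC1 stood far below the rest after knock-down. STC2 (ENSG00000113739), a secreted glycoprotein, measured 51.4, 71.0 and 59.1 CPM in shCONTROL and 2.49, 2.77 and 2.29 in shBCLAF1. The knock-down libraries were close to each other, and the log2FC was -4.59 (SE 0.16). CHAC1 (ENSG00000128965), an enzyme that degrades glutathione, measured 51.2, 54.3 and 49.1 CPM in shCONTROL and 5.00, 4.10 and 2.05 in shBCLAF1. Here the knock-down libraries differed among themselves, with replicate 3 lowest and a coefficient of variation of 40.7%. The log2FC was -3.79 (SE 0.31), with values of -4.06 to -3.50 when 1 library was omitted.

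SESN2 and DDIT4 both restrain the growth kinase mTORC1, SESN2 as a leucine sensor and DDIT4 (also called REDD1) through the TSC complex. SESN2 (ENSG00000130766) measured 85.3, 93.8 and 86.6 CPM in shCONTROL and 21.7, 21.6 and 21.0 in shBCLAF1. DDIT4 (ENSG00000168209) measured 188, 241 and 196 CPM and then 53.5, 51.2 and 50.2. Both were thus at nearly the same share of the control level, 24.2% and 24.8%, with log2FC values of -2.05 (SE 0.05) and -2.01 (SE 0.10).

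TRIB3 (ENSG00000101255), a pseudokinase that is induced by ATF4 and CHOP and feeds back on them, measured 152, 193 and 159 CPM in shCONTROL and 54.3, 48.7 and 53.3 in shBCLAF1, a log2FC of -1.69 (SE 0.10). PPP1R15A (ENSG00000087074), or GADD34, directs protein phosphatase 1 to eIF2 and so ends the response. It measured 68.0, 77.5 and 65.2 CPM in shCONTROL and 54.5, 54.7 and 54.8 in shBCLAF1. The groups did not overlap, but the log2FC of -0.36 (SE 0.07) was the smallest of the 10.

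All 10 regulators had their highest shCONTROL value in replicate 2. The share of all genes highest in that library was not computed, so whether this is particular to the members is not known. That library enters the control level of both comparisons, and without it the RIP calls of DDIT4 and STC2 were lost, as given below.

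The members' proportions to each other also differed, which does not depend on how libraries are scaled. Relative to ATF4 in the same library, STC2 was lower in shBCLAF1 than in shCONTROL by a mean log2 difference of -3.61, CHAC1 by -2.92, SESN2 by -1.08, DDIT4 by -1.03, DDIT3 by -0.85 and TRIB3 by -0.72. The log2 ratio of ATF3 to ATF4 averaged -4.97 ± 0.22 in control and -5.06 ± 0.20 in knock-down libraries (SD over 3 libraries), a difference within the spread. The ratio of ATF5 to ATF4 averaged -1.90 ± 0.15 in control and -1.70 ± 0.09 in knock-down libraries (SD over 3), and these overlapped. PPP1R15A was higher relative to ATF4 by 0.61. ATF4 made up 37.5% to 42.0% of the summed CPM of the 10 genes in shCONTROL and 49.0% to 50.6% in shBCLAF1.

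**Figure D2:**
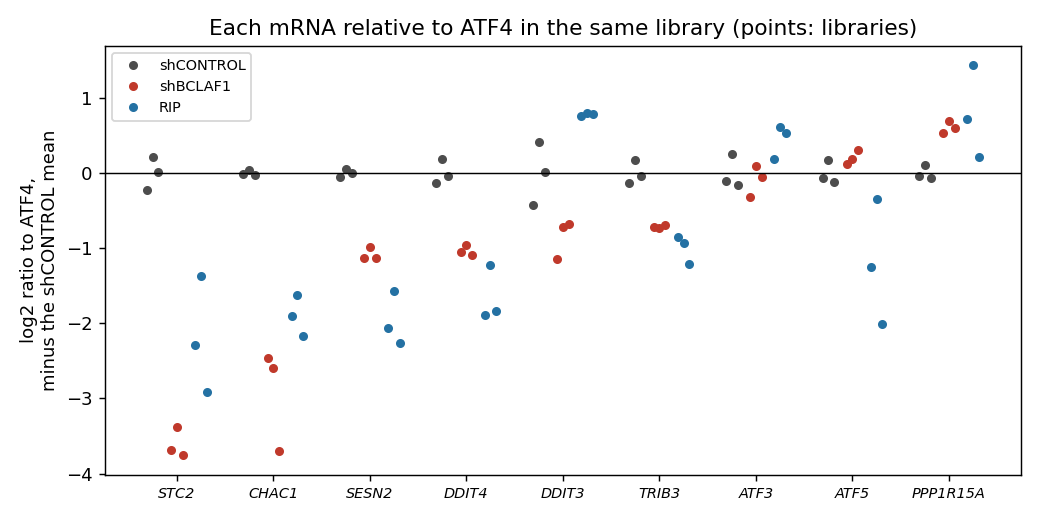
Log2 ratio of each regulator to ATF4 within a library, minus the mean of the shCONTROL libraries (vertical axis); points are the 3 libraries of each group. After knock-down STC2 and CHAC1 lie lowest, ATF3 and ATF5 stay near 0 and PPP1R15A lies above 0, while in the RIP only DDIT3, ATF3 and PPP1R15A have all libraries above 0.

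The RIP comparison asks which RNAs were recovered with BCLAF1 beyond their level in the same cells. No mock precipitation is named in the labels, so binding and what the procedure itself recovers cannot be told apart. Here the 10 regulators split. ATF4, ATF3, DDIT3 and PPP1R15A were higher in the RIP than in shCONTROL RNA-seq, CHAC1, SESN2, STC2 and DDIT4 were lower, and TRIB3 and ATF5 did not pass. The fit called 24.6% of 16727 genes higher and 24.7% lower, so 4 higher and 4 lower among 10 is each above but not far from these shares. With a minimum log2FC of 1 in size, ATF3, DDIT3 and PPP1R15A were enriched and CHAC1, SESN2 and STC2 depleted, where 11.1% of genes tested were enriched and 13.6% depleted. The median log2FC of the 10 was -0.29, beside -0.05 over all genes tested.

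**Figure D3:**
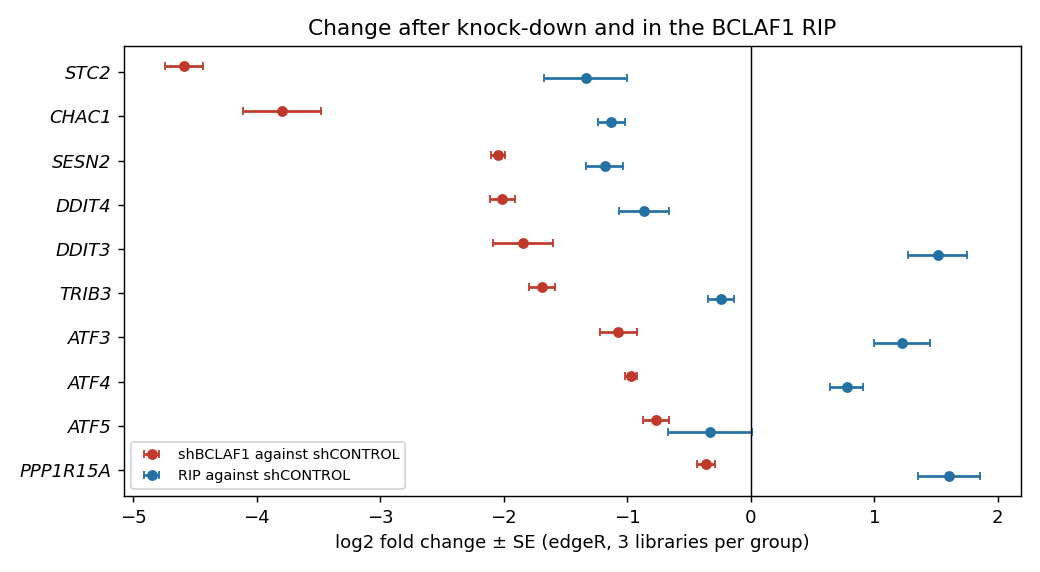
Log2 fold change with its SE from edgeR (horizontal axis) for each regulator, in shBCLAF1 against shCONTROL and in the RIP against shCONTROL, 3 libraries per group. After knock-down all 10 lie below 0, from -4.59 for STC2 to -0.36 for PPP1R15A, and in the RIP 4 lie above 0 and 6 below.

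PPP1R15A had the largest value in the RIP, with 176, 296 and 164 CPM in replicates 1, 2 and 3. All 3 libraries were above every shCONTROL library, the highest being replicate 2. This was 3.04-fold, a log2FC of 1.60 (SE 0.25, adjusted p 0.00314, where every such p here is Benjamini-Hochberg adjusted from the quasi-likelihood fit of edgeR). DDIT3 measured 59.1, 62.3 and 79.6 CPM in the RIP, each above the highest control of 31.2. Its log2FC was 1.52 (SE 0.24, adjusted p 0.00314, edgeR). MARS1, which overlaps it, had a log2FC of -0.42 in the RIP, opposite in sign.

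ATF3 measured 31.1, 42.7 and 52.4 CPM in the RIP, a log2FC of 1.23 (SE 0.23, adjusted p 0.00559, edgeR). ATF4 measured 856, 875 and 1133 CPM, above its controls but under the minimum for enrichment, at 0.78 (SE 0.13, adjusted p 0.00455, edgeR). For these 4 genes the RIP values lay above the shCONTROL values in every library, and the sign was the same in all 16 alternatives. None of them passed the stricter test against a log2FC of 1 (adjusted p 0.0626 for PPP1R15A, 0.0808 for DDIT3, 0.331 for ATF3 and 1.00 for ATF4, each the highest over its alternatives).

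On the lower side, SESN2 measured 32.3, 46.7 and 37.5 CPM in the RIP, a log2FC of -1.18 (SE 0.15, adjusted p 0.00146, edgeR). CHAC1 measured 21.0, 26.1 and 23.2 CPM, at -1.13 (SE 0.11, adjusted p 6.38e-04, edgeR). In both genes every RIP library was under all controls, but neither passed the stricter test against a log2FC of 1 (adjusted p 0.268 for CHAC1 and 0.259 for SESN2, edgeR), nor did STC2 (0.346). STC2 measured 18.7, 36.4 and 16.2 CPM in the RIP, with replicate 2 well above the others. Its log2FC was -1.34 (SE 0.33, adjusted p 0.0179, edgeR). The STC2 call was lost without shCONTROL replicate 2 or 3 or RIP replicate 1 (adjusted p 0.0616, 0.0511 and 0.0559, with 2.61e-04 to 0.346 over its alternatives), and without RIP replicate 2 it measured -1.79 on the log2 scale.

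DDIT4 measured 85.1, 139 and 117 CPM in the RIP, at -0.86 (SE 0.20, adjusted p 0.0139, edgeR). Without shCONTROL replicate 2 its adjusted p was 0.0517 (2.51e-04 to 1.00 over its alternatives). TRIB3 was nearly level, with 142, 137 and 146 CPM in the RIP against 152 to 193 in shCONTROL, and the log2FC of -0.24 (SE 0.11, adjusted p 0.109, edgeR) did not pass although the groups did not overlap. ATF5 measured 96.4, 184 and 75.4 CPM, replicate 2 being above every control and the other two below. Its log2FC of -0.33 (SE 0.34, adjusted p 0.455, edgeR) was within the spread, and it was -0.81 without RIP replicate 2 (adjusted p 0.0128, with 0.0128 to 1.00 over its alternatives).

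The reference chosen decides the lower side. Set against shCONTROL and shBCLAF1 together, so that the low knock-down values enter the reference, the log2FC values of the RIP were 0.96 for STC2, 0.77 for CHAC1, 0.61 for TRIB3, 0.15 for DDIT4 and 0.056 for ATF5, above 0, and -0.15 for SESN2. The 4 genes higher in the RIP measured 2.45 for DDIT3, 1.79 for PPP1R15A, 1.77 for ATF3 and 1.27 for ATF4. Their low shBCLAF1 values raise these figures, so this reference is no check of the higher side.

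Within the RIP libraries the proportions again differed from the controls. Relative to ATF4, STC2 was lower by a mean log2 difference of -2.19, SESN2 by -1.96, CHAC1 by -1.90, DDIT4 by -1.65 and ATF5 by -1.20, while PPP1R15A was higher by 0.79, DDIT3 by 0.78 and ATF3 by 0.44. ATF4 made up 47.4% to 61.4% of the summed CPM of the 10 genes in the RIP. RIP replicate 2 held the highest value of 6 members, ATF5, DDIT4, CHAC1, SESN2, STC2 and PPP1R15A, and replicate 3 that of the other 4.

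The closest paralogues of the members offer a comparison within families. Of 9, the 4 genes TRIB2, SESN3, STC1 and DDIT4L were listed at 0 in all 9 libraries. JDP2, the relative of ATF3 and also a target of ATF4, averaged 33.6 ± 1.65 CPM in the control libraries, 9.83 ± 0.711 after knock-down and 99.7 ± 24.3 in the precipitate (SD over 3 libraries). Its log2FC values were -1.77 (SE 0.08) after knock-down and 1.58 (SE 0.19) in the RIP, the same signs as ATF3. CHAC2 had -0.50 (SE 0.09) and -1.32 (SE 0.16), the same signs as CHAC1. SESN1, a p53-induced sestrin, was higher after knock-down at 0.33 (SE 0.04), where SESN2 was lower, and TRIB1 was higher at 0.37 (SE 0.06), where TRIB3 was lower. In the RIP SESN1 was at -0.51 (SE 0.13) and TRIB1 at -0.27 (SE 0.09), the same signs as SESN2 and TRIB3. PPP1R15B, the constitutive partner of protein phosphatase 1 on eIF2, had a log2FC of 0.06 (SE 0.05) that did not pass, and it was lower in the RIP at -0.45 (SE 0.08), opposite to PPP1R15A. CHAC2 and SESN1 each missed the threshold after knock-down under 1 of 14 alternatives. In the RIP CHAC2 and PPP1R15B each missed it under 1 of 16, SESN1 under 4 and TRIB1 under 8.

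Of 42 other target genes of ATF4 and CHOP, 39 were tested after knock-down, and 35 were lower and 1 higher, beside 16.9% and 15.5% of all genes. This list was written with earlier results of these data known. Its median log2FC was -1.10 after knock-down, beside 0.02 over all genes tested. The lowest adjusted p belonged to the amino acid transporters SLC7A5 (-1.73, SE 0.04) and SLC1A5 (-1.16, SE 0.04), the mitochondrial folate enzyme ALDH1L2 (-2.25, SE 0.08) and the alanine aminotransferase GPT2 (-2.21, SE 0.08), all on the log2 scale. The 1 gene that was higher was TNFRSF10B, a death receptor gene that is also a p53 target, at 0.17, named here after its value was seen. This call was lost with limma-voom, with no filter, in the single fit of all 9 libraries, under the replicate block, and without shCONTROL replicate 1 or 3 or shBCLAF1 replicate 1 or 2. SLC6A9, a glycine transporter gene, was listed at 0 in all shBCLAF1 libraries.

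In the RIP 11 of 39 genes of this list were higher, near the 24.6% over all genes, and 17 were lower, beside 24.7%. By the minimum of 1 on the log2 scale 2 were enriched and 9 depleted, and these counts were 10 and 1 with shCONTROL and shBCLAF1 averaged as the reference. The lowest adjusted p belonged to PCK2 (-1.55, SE 0.11), SLC7A11 (-1.53, SE 0.11), PSAT1 (-1.68, SE 0.13) and MTHFD2 (-1.20, SE 0.10), which encode a mitochondrial PEP carboxykinase, the cystine transporter, a serine synthesis enzyme and a mitochondrial folate enzyme.

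Upstream of ATF4, of 22 genes for eIF2 kinases, eIF2, eIF2B and regulators of eIF2 phosphorylation, 7 were lower and 1 higher after knock-down, beside 16.9% and 15.5% of all genes. The other 14 did not pass, the 4 kinases among them, and none of the 22 reached a log2FC of 1 in size. The kinase gene EIF2AK2 measured 80.5, 101 and 0.642 CPM in shCONTROL and 118, 110 and 0.819 in shBCLAF1. Its log2FC thus had an SE of 1.66, and that of EIF2AK3 was -0.46 (SE 0.23). For these kinases, not passing does not show an unchanged level. The 1 gene of the 22 that was higher was DNAJC3 (0.86, SE 0.04), an inhibitor of the kinase PERK. EIF2S3 (-0.55, SE 0.06), EIF2S2 (-0.47, SE 0.04) and EIF2B3 (-0.45, SE 0.07) were lower. In the RIP 9 of 22 were higher and 5 lower, beside 24.6% and 24.7% of all genes, with EIF2B5 at 1.88 (SE 0.13), EIF2AK4, the amino acid sensing kinase GCN2, at 1.65 (SE 0.14) and DELE1, which relays mitochondrial stress to the kinase HRI, at -0.87 (SE 0.08).

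The other arms of the unfolded protein response raise chaperones of the endoplasmic reticulum. Of 22 genes of the IRE1-XBP1 and ATF6 arms, 10 were higher and 4 lower after knock-down, beside 15.5% and 16.9% of all genes, so the lower count is near that share. SDF2L1 (0.82, SE 0.11) and DNAJB11 (0.50, SE 0.04) were higher, and HERPUD1 (-0.99, SE 0.07), which ATF4 can also induce, and EDEM1 (-0.42, SE 0.06) were lower. In the RIP 7 were higher and 5 lower, both near the 24.6% and 24.7% over all genes, among them CANX (1.16), a lectin chaperone, and XBP1 (-1.62), the factor that IRE1 activates by splicing.

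ATF4, ATF3 and CHOP bind DNA as dimers with other bZIP proteins. Of 18 tested bZIP partners, 5 were higher and 7 lower after knock-down, beside 15.5% and 16.9% of all genes, among them CEBPE (2.84, SE 0.16), a factor of granulocyte maturation, BATF3 (-1.81, SE 0.09), CEBPG (-0.60, SE 0.05) and FOSL2 (0.37, SE 0.03). In the RIP 10 of 18 were higher and 1 lower, beside 24.6% and 24.7% of all genes, including BATF (1.99, SE 0.20), JUN (1.87, SE 0.21), JUND (1.21, SE 0.16) and BATF3 (1.17, SE 0.12).

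Several members have other known inducers, and lists for these were counted in the same fits, in which 15.5% of all genes were higher and 16.9% lower after knock-down. Of 23 tested p53 targets, a class that includes SESN2 in other cells, 7 were higher and 4 lower after knock-down, with ZMAT3 at 0.83 (SE 0.08), CDKN1A at 0.37 (SE 0.05) and MDM2 at 0.33 (SE 0.04). The 4 lower ones, a count near the share over all genes, were BBC3 (-0.75), TP53INP1 (-0.36), BTG2 (-0.34) and XPC (-0.17), named after their values were seen. Of 19 hypoxia targets, a class to which DDIT4 and STC2 belong, 2 were higher and 11 lower. They included VEGFA (-1.51, SE 0.10), which is also on the ATF4 list, NDRG1 (-0.69, SE 0.05), SLC2A1 (0.89, SE 0.06) and PFKFB3 (0.55, SE 0.04). Of 16 NRF2 targets, 7 were higher, among them GCLM (0.99, SE 0.11) and ABCC1 (0.49, SE 0.04), and 2 lower, TXNRD1 (-0.53, SE 0.04) and SLC7A11 (-0.64, SE 0.10).

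In the RIP, where 24.6% of all genes were higher and 24.7% lower, of 23 p53 targets 7 were higher and 9 lower, led by CCNG1 (-2.20, SE 0.09), TRIAP1 (-2.03, SE 0.21), ZMAT3 (-1.39, SE 0.15) and POLH (-0.80, SE 0.11). Of 19 hypoxia targets 6 were higher, with KDM3A at 1.40 (SE 0.10), MXI1 at 1.30 (SE 0.12) and PFKFB3 at 1.29 (SE 0.12), and 7 lower, with P4HA1 at -1.23 (SE 0.12). Of 17 NRF2 targets 4 were higher and 6 lower, with GCLM at -2.22 (SE 0.13) and FTH1 at 1.75 (SE 0.16).

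Immediate early genes, which ATF3 resembles in its rapid induction, had 11 of 21 tested members higher and 1 lower in the RIP, beside 24.6% and 24.7% of all genes. ARC was at 3.63 (SE 0.44), FOSB at 3.18 (SE 0.34), JUN at 1.87 (SE 0.21) and KLF4 at 1.38 (SE 0.11). After knock-down 2 of 21 were higher and 7 lower, beside 15.5% and 16.9%, with FOS at 0.63 (SE 0.08), MYC at -0.88 (SE 0.03), JUN at -0.83 (SE 0.12) and IER2 at -0.51 (SE 0.09). No list was compared with another by a test.

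**Figure D4:**
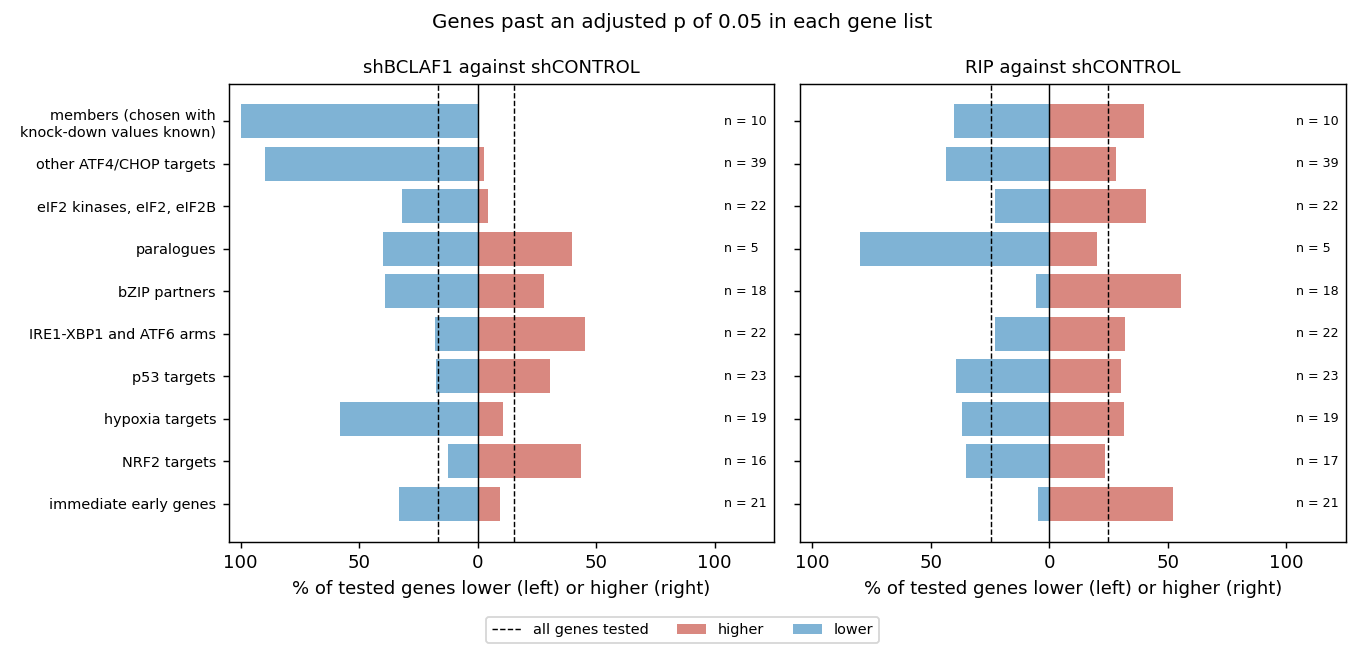
Share of the tested genes of each list (horizontal axis, percent) that were lower (left) or higher (right) at an adjusted p under 0.05, in the knock-down and RIP comparisons; dashed lines give the shares over all genes tested and n the genes tested. After knock-down 35 of 39 other ATF4 and CHOP targets were lower, and in the RIP 11 of 21 immediate early genes were higher. The lists were written with earlier results of these data known, so these counts are descriptions.

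The pattern over the 9 libraries, taken as the mean of the 10 regulators' standardised log2 CPM, was followed most closely by AMZ1, KCTD15, TMEM268, MLST8 and ZBTB16 among 12404 other genes. Pearson's r was 0.994, 0.994, 0.994, 0.993 and 0.991 over 9 libraries, which form 3 groups, so r mainly reflects the group means. MLST8, a subunit of the mTOR complexes, averaged 92.7 CPM in control libraries, 34.5 after knock-down and 92.4 in the precipitate. ZBTB16, a zinc finger repressor, averaged 9.74 CPM in control libraries and 11.6 in the precipitate and was listed at 0 in all shBCLAF1 libraries. Among the members, r with their own mean ran from 0.657 for PPP1R15A and 0.664 for ATF5 to 0.973 for TRIB3.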

How the data were processed

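For 9 libraries the authors deposited raw expected counts by gene (StringTie estimates) in 1 table. Per the submitters' processing notes, STAR 2.7.11b, StringTie 2.2.3 and the build hg38 were used, and annotation and strand setting are not given in the sources used here. The values were whole numbers and needed no rounding. In a library 6 to 17 genes stood at 1 and 103 to 197 at 2, so 1 count need not be 1 read and the totals are estimates of depth. An entry that names no gene held 2.18% to 3.75% of the counts in 8 libraries and was left out.

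Each comparison was fitted on its own 6 libraries over all genes with edgeR 4.0.16 in R 4.3.3 (default low-count filter, TMM scaling, quasi-likelihood test, group only), and p-values were adjusted by Benjamini-Hochberg, with a threshold of 0.05. Enrichment or depletion in the RIP needed a log2FC beyond 1 or -1 as well. Each SE is the coefficient divided by the root of its F. Alternatives were DESeq2 1.42.0, limma-voom 3.58.1, other scalings, filters and references, and leaving out each library.

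Members and gene lists were chosen with earlier results of these data known. All members and paralogues are named, with up to 4 genes per other list and comparison by smallest adjusted p, BCLAF1, and the 5 genes most like the members with a mean of at least 50 counts. Promoter sequences are from RefSeq, GRCh38.p14.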

Additional observations from a re-analysis of the deposited data

How the results depend on the processing

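The count of regulators lower after knock-down, a description of the values known when they were chosen, was 10, and it was 8 in the single fit of all 9 libraries (without ATF5 and PPP1R15A) and 7 with a minimum log2FC of 1 in size. In the RIP, 3 were enriched and 3 depleted. Tested against a log2FC of 1 these counts were 0 and 0, and with shCONTROL and shBCLAF1 averaged as the reference 4 and 0. The members' low shBCLAF1 values raise their RIP values against that reference, so it is no check of the enriched ones. With that averaged reference, ATF5 (0.056), DDIT4 (0.15), TRIB3 (0.61), CHAC1 (0.77) and STC2 (0.96) turned from lower to higher on the log2 scale, because that reference contains the shBCLAF1 libraries. With 1 library left out, the depleted members numbered 2 to 4 and the enriched 3.

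Of the other ATF4 and CHOP targets, 35 were lower after knock-down, and 21 of them by 1 or more (log2). The 1 higher gene was lost, giving 0, with limma-voom, with no filter, with all 9 libraries in one fit, with the replicate block and with that minimum, and it was 0 to 1 with 1 library left out. In the RIP 2 were enriched, against 1 with library totals, 1 with all 9 libraries, 1 when tested against a log2FC of 1 and 10 with the averaged reference, and 1 to 2 with 1 library left out. The 9 depleted became 4 with the stricter test and 1 with the averaged reference. The cause was not tested for these counts.

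Over the genes kept by the filter, deviations of same-numbered replicates were nearly uncorrelated (r from -0.02 to 0.06, beside -0.04 to 0.04 for other pairs). Such values cannot exclude pairing, and EIF2AK2 was low in replicate 3 of both RNA-seq groups. Whether the numbers pair samples is therefore not known. With the replicate block 10 regulators were lower after knock-down, 3 enriched and 3 depleted in the RIP, while calls over all genes numbered 4809 against 5484 without it (knock-down) and 6506 against 8231 (RIP). With library totals in place of TMM, the RIP median over all genes shifted by -0.12 (log2). The depth, estimated from coverage, does not limit these genes, which held at least 75 counts in every library.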
